A study of Rattus norvegicus with 6 samples.

Results

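Ribosome biogenesis factors are the proteins that build ribosomes in the nucleolus without being part of the finished particle. The group described here holds 51 genes, picked by symbol from the 17771 genes of the count table, and all 51 were found there. They were measured by bulk RNA sequencing in rat corneas 7 days after an allograft, in 6 libraries. The recipients were Wistar rats grafted with corneas from Sprague-Dawley (SD) donors, and they received intraperitoneal resveratrol, a plant polyphenol, or saline every day. The groups are resveratrol and saline, called control, with 3 libraries each; both received the graft, and no ungrafted cornea is among the samples. The labels do not say how much of the sampled tissue was donor graft, nor whether each library came from its own animal, so any p-value reflects the scatter of these libraries, which may be technical. The members were chosen with the differences between resveratrol and control in these data known, so those differences are a description here, and no test is offered as support for them.

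Ribosome assembly starts when RNA polymerase I copies ribosomal DNA into a long precursor RNA. Small nucleolar RNPs (snoRNPs) guide the chemical modification of that RNA: box C/D particles guide methylation and box H/ACA particles guide pseudouridylation. A large assembly called the small subunit processome folds and cuts the part that becomes the small subunit, and a separate chain of GTPases, helicases and ATPases matures the large subunit. Many of these genes are known targets of the transcription factor Myc and of growth signals through mTOR. In the cornea, the epithelium renews itself throughout life and depends on new ribosomes to do so. By role the members fall into 20 small subunit factors, 17 large subunit factors, 8 snoRNP proteins, 3 genes of RNA polymerase I transcription and 3 nucleolar proteins with several roles.

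All 51 members were well measured, with 360 to 16351 counts for any member in any library, out of 35068936 to 37460756 counts per library, and all 51 were among the 14213 genes tested. Means were higher in resveratrol for 49 of the 51, while 48.8% of all tested genes had a higher mean. The sizes were modest. The median difference of the members was 0.26 on the log2 scale, a ratio of 1.19, against -0.01 for all tested genes. Of the members, 24 were more than 1.2-fold higher, 2 were more than 1.5-fold higher and 0 were more than 2-fold higher; of all tested genes, 12.6%, 2.15% and 0.556% were. In 25 members each resveratrol library lay above each control library, and no member showed the reverse; 12.2% of all tested genes lay higher without overlap. With edgeR's quasi-likelihood test over all genes, 0 of the 51 members and 0.00% of all genes had an adjusted p under 0.05, and 25 members were higher at an unadjusted p under 0.05, as were 7.84% of all genes. DESeq2 called 7 members, all higher, while it called 2.23% of all genes higher and 4.64% lower. Since the choice of members used this contrast, nothing is read from these counts. Bulk RNA does not separate fewer cells of a type from less RNA per cell.

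**Figure D1:**
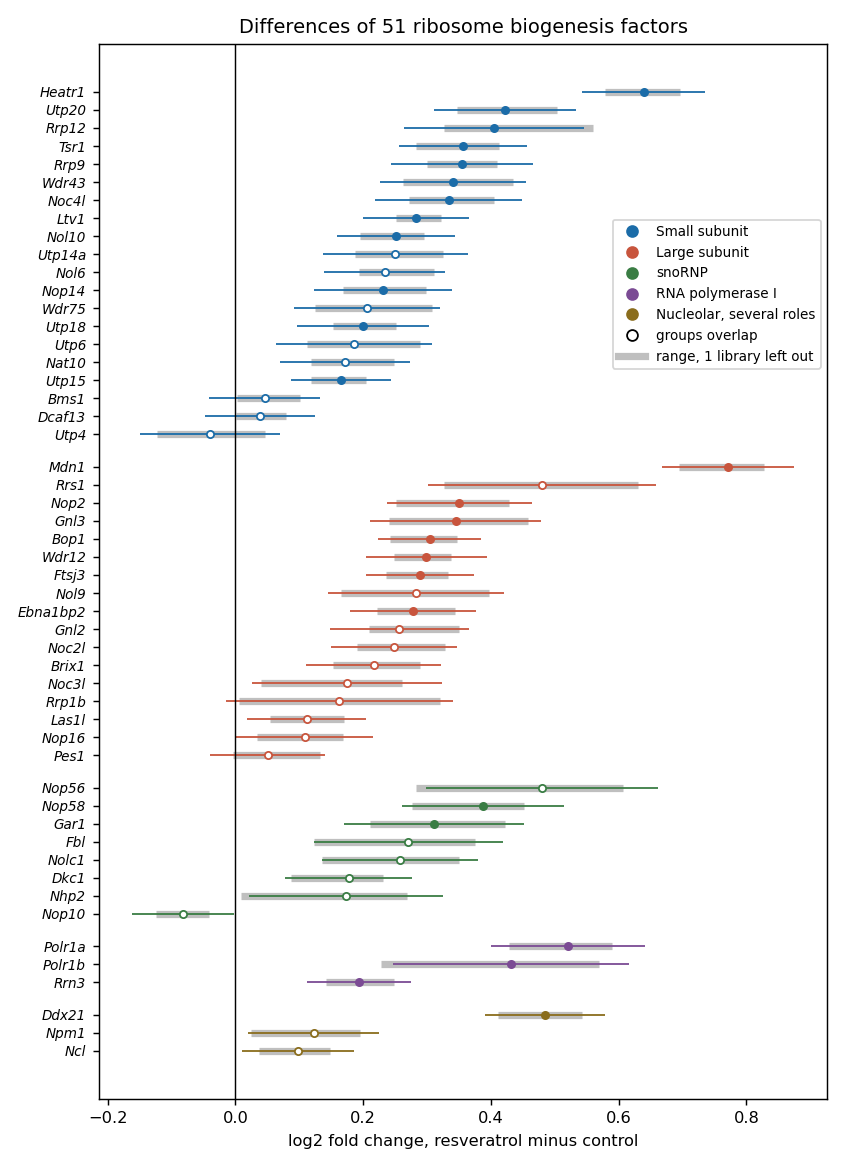
Log2 fold change of each of the 51 members, resveratrol minus control, by role; points are edgeR estimates, thin lines are ± 1 moderated standard error, and grey bars span the estimates with any 1 library left out. Filled points mark the 25 members whose groups do not overlap; Mdn1 (0.77) and Heatr1 (0.64) lie farthest to the right, and Nop10 (-0.08) and Utp4 (-0.04) lie left of 0.

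The largest differences were in Mdn1 and Heatr1. Mdn1 encodes midasin, a giant ATPase that pulls assembly factors off the maturing large subunit. Its level in CPM, counts scaled to library size, was 25.2, 21.4 and 25.4 CPM in the control libraries and 42.4, 37.7 and 42.7 in the resveratrol libraries. Every resveratrol library exceeded every control library by a wide margin (log2 fold change ± standard error 0.77 ± 0.10, a ratio of 1.71; DESeq2 adjusted p = 5.94e-07). On log2(FPKM + 1), which understates differences of low genes, the Mdn1 difference was 0.46. Heatr1 encodes a scaffold of the small subunit processome that is also needed for transcription by RNA polymerase I. It was at 27.2, 28.0 and 30.7 CPM in the control libraries and 41.5, 43.5 and 48.8 in the resveratrol libraries. These groups did not overlap either (0.64 ± 0.096, a ratio of 1.56; DESeq2 adjusted p = 2.9e-05). For both genes edgeR's adjusted p was 0.1002, so neither passed.

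Promoters of the members were read from RefSeq (assembly GRCr8, whereas the submitters' processing notes name mRatBN7.2), matched by symbol for 46 of the 51. They are shown for the E-box CACGTG, the sequence that Myc and related factors bind. It was present within 300 bases around the start in 17 of 46 members (37.0%), in 21 of 90 other biogenesis factors (23.3%) and in 9.06% of the promoters of all tested genes. It was in 9 of 18 small subunit factors (50.0%), in 6 of 14 large subunit factors (42.9%) and in 5 of 58 ribosomal protein genes (8.62%). Of the 18 E-boxes in members, 13 began within 60 bases of the start. The ETS core CCGGAAG was in 22 of 46 members (47.8%), in 49 of 90 other biogenesis factors (54.4%), in 20 of 58 ribosomal protein genes (34.5%) and in 16.6% of all, and 10 members held both. The differences between these shares were not tested. Each line gives the 250 bases before the start and the first 30 bases after it, on the gene's strand, with E-boxes and ETS cores of either orientation in capitals. Mdn1 and Heatr1 are shown for their differences, Rrp12 and Utp20 as further E-box genes with groups that did not overlap, and Utp4 as an E-box gene with no higher mean.

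Mdn1 (chr5:51851559-51851838, plus strand): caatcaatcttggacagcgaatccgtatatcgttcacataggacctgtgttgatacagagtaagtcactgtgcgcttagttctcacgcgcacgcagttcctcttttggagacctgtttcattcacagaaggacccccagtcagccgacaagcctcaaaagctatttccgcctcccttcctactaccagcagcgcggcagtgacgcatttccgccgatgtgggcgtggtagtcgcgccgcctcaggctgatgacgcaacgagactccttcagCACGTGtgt
Heatr1 (chr17:62785157-62785436, minus strand): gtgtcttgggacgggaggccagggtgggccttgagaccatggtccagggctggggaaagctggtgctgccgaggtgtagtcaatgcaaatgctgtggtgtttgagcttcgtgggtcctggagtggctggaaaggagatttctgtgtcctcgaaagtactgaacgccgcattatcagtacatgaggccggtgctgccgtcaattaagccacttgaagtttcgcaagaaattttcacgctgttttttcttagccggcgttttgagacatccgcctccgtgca
Rrp12 (chr1:250655289-250655568, minus strand): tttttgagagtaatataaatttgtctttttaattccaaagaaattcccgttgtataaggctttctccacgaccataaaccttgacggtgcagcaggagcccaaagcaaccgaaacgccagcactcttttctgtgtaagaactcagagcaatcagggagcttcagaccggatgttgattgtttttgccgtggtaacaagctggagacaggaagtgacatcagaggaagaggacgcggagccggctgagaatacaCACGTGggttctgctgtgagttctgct
Utp20 (chr7:25102820-25103099, minus strand): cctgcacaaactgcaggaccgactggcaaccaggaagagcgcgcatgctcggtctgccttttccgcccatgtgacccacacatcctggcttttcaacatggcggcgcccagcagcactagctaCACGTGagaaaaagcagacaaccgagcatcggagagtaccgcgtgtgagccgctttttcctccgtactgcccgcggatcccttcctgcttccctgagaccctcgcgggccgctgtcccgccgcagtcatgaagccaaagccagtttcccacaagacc
Utp4 (chr19:51701991-51702270, plus strand): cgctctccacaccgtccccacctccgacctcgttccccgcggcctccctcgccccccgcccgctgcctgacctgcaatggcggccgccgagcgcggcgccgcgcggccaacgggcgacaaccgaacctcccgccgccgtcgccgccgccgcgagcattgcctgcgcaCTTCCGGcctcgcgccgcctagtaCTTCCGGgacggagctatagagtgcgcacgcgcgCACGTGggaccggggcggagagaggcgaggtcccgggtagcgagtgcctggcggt

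Mdn1 carries its E-box 21 bases after the start and Rrp12 3 bases after it, Utp20 has one 127 bases before, and the Heatr1 window has neither motif. Utp4, whose mean was not higher, holds an E-box 25 bases before the start and a pair of ETS cores. The median log2 fold change was 0.27 in the 17 members with an E-box and 0.25 in the 29 without. For the ETS core the median was 0.24 in 22 members with it and 0.29 in 24 without. The members were chosen with these differences known, and a link between motif and difference was not tested. Altogether 10 motifs were searched on both strands, and a base could count toward more than 1 of them. The others were CACGCG (37.0% of members, 16.4% of all), TCTCGCGA (13% and 1.99%), ATGGCGG (21.7% and 9.32%), the NRF1 motif (19.6% and 9.43%), GGGCGG (63.0% and 61.3%), TGACGTCA (2.17% and 3.04%), CTTTCTT (6.52% and 6.70%) and CCAAT (19.6% and 37.6%). A match of letters does not show that a factor binds there.

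Levels per transcript length were compared in FPKM. Npm1, a histone chaperone and nucleolar shuttle protein, was highest at 209.7 ± 24.3 FPKM (mean ± SD over all 6 libraries), and Ncl, nucleolin, followed at 167 ± 12.6 FPKM; Npm1 was above Ncl in 6 of 6 libraries. Mdn1 was lowest at 1.47 ± 0.443 FPKM. Between these ends the order is loose: in 45 of 50 neighbouring pairs the means differed by less than the larger SD. The methyltransferase of box C/D snoRNPs, fibrillarin (Fbl, 65.6 ± 11.2 FPKM), was above its partners Nop58 (26.6 ± 5.14 FPKM) and Nop56 (23.5 ± 6.56 FPKM). In the box H/ACA particle, Nop10 stood at 55.9 ± 3.21 FPKM, Nhp2 at 44.5 ± 7.80 FPKM, the pseudouridine synthase Dkc1 at 33.7 ± 4.07 FPKM and Gar1 at 10.8 ± 1.82 FPKM. The catalytic subunits of RNA polymerase I were among the lowest members, Polr1a at 4.10 ± 0.896 FPKM and Polr1b at 3.68 ± 0.970 FPKM. By role the median FPKM was 8.02 for small subunit factors, 14.3 for large subunit factors and 30.1 for snoRNP proteins. The 2 members with the largest differences ranked 51st (Mdn1) and 45th (Heatr1) by level, and the 2 most abundant had small differences.

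**Figure D2:**
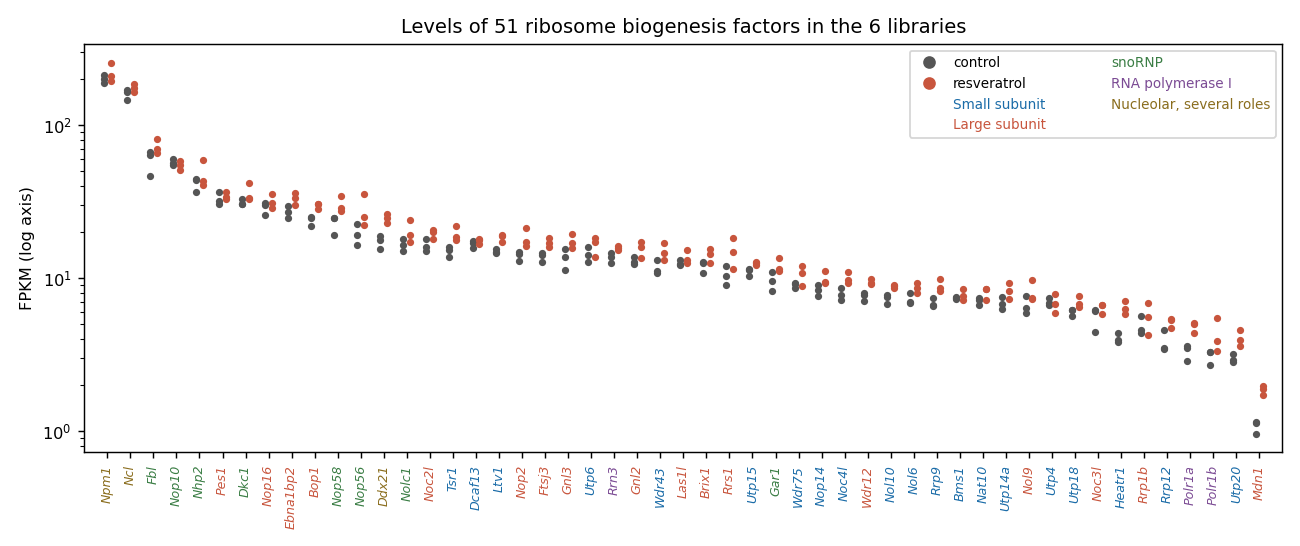
FPKM (log axis) of the 51 members in each of the 6 libraries, ordered by mean level; each point is a library, grey for control and red for resveratrol, and the gene names are coloured by role. Npm1 and Ncl stand at the left, at 209.7 and 167 FPKM on average, and Mdn1 at the right at 1.47.

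Transcription of ribosomal DNA was represented by 3 members, and all 3 lay higher without overlap, as 12.2% of all tested genes did. Polr1a, the largest subunit of RNA polymerase I, was at 21.3, 17.6 and 21.8 CPM in the control libraries and 31.0, 26.2 and 29.9 in the resveratrol libraries (0.52 ± 0.12; DESeq2 adjusted p = 0.0071). Polr1b, the subunit that shares the active site with it, was at 10.3, 12.6 and 12.5 CPM in the control libraries and 12.9, 14.6 and 20.3 in the resveratrol libraries (0.43 ± 0.19). Resveratrol 3 was the highest library for Polr1b, and resveratrol 1 lay just above control 2; without resveratrol 3 the log2 fold change was 0.23. Rrn3, the initiation factor that brings the polymerase to the promoter, was at 52.0, 45.1 and 48.9 CPM in the control libraries and 57.3, 53.7 and 56.0 in the resveratrol libraries (0.19 ± 0.082), a narrower gap. Of 12 further genes of this machinery, 11 had a higher mean. Polr1c, Polr1e and Polr1f lay higher and Polr1h lower without overlap, all 4 named after their values were seen. Ubtf, the factor that keeps ribosomal DNA open, was at 117 ± 3.35 CPM (mean ± SD, n = 3) in control against 128 ± 7.27 in resveratrol (0.13 ± 0.072), and Polr1d differed by 0.02 ± 0.11. By edgeR 0 of these 12 passed.

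Small subunit factors had a higher mean in 19 of 20 genes, and 12 of the 20 lay higher without overlap, as 12.2% of all tested genes did (median 0.24). Besides Heatr1, DESeq2 called Utp20, a long scaffold protein of the processome (0.42 ± 0.11; DESeq2 adjusted p = 0.0242), and Tsr1, which acts on the late precursor (0.36 ± 0.10; DESeq2 adjusted p = 0.0485). Tsr1 was at 51.4, 45.9 and 53.6 CPM in the control libraries and 59.9, 61.7 and 71.5 in the resveratrol libraries. Its resveratrol libraries all lay above control, with control 3 the nearest. Ltv1, needed for export and late maturation of the small subunit, was at 25.2, 25.4 and 26.7 CPM in the control libraries and 30.0, 32.8 and 31.3 in the resveratrol libraries (0.28 ± 0.083). Its values clustered tightly in both groups. Rrp12, which helps export precursors from the nucleus (0.40 ± 0.14), Rrp9, a protein of the snoRNP that directs the first cuts (0.35 ± 0.11), and Noc4l, the partner of Nop14 (0.33 ± 0.11; Nop14 0.23 ± 0.11), also did not overlap.

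The processome genes did not all differ alike, even within a subcomplex. The group of proteins that binds the precursor first includes Heatr1, Wdr43, Wdr75, Utp15 and Utp4, with log2 fold changes of 0.64, 0.34, 0.21, 0.17 and -0.04. Utp4 was at 26.6, 29.5 and 27.4 CPM in the control libraries and 24.0, 26.7 and 30.4 in the resveratrol libraries. Its groups were interleaved, with resveratrol 1 lowest and resveratrol 3 highest. Dcaf13 was at 26.5, 25.4 and 23.9 CPM in the control libraries and 25.4, 26.6 and 25.8 in the resveratrol libraries (0.04 ± 0.086), and the GTPase Bms1 at 33.3, 32.3 and 32.5 CPM in the control libraries and 33.9, 31.2 and 36.2 in the resveratrol libraries (0.05 ± 0.086). In both genes the groups overlapped and the means differed by less than the standard error. The others ranged from 0.17 to 0.25: the cytidine acetyltransferase Nat10 (0.17), Utp6 (0.19), Utp18 (0.20), Nol6 (0.23), Utp14a (0.25) and Nol10 (0.25), and of these Utp18 and Nol10 did not overlap.

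Large subunit factors had a higher mean in 17 of 17 genes, 7 without overlap against 12.2% of all tested genes (median 0.28). Rrs1, which helps bring the smallest ribosomal RNA into the precursor, was at 14.9, 17.1 and 19.8 CPM in the control libraries and 19.0, 24.0 and 29.1 in the resveratrol libraries (0.48 ± 0.18). Control 3 exceeded resveratrol 1, so the groups overlapped despite the second largest mean difference of this set. Ebna1bp2, an early assembly factor, was at 27.6, 30.2 and 32.8 CPM in the control libraries and 34.1, 36.9 and 38.9 in the resveratrol libraries (0.28 ± 0.099). The RNA methyltransferases Nop2 (0.35 ± 0.11) and Ftsj3 (0.29 ± 0.085) and the GTPase Gnl3, also called nucleostemin (0.34 ± 0.13), likewise did not overlap. Overlap was found for Gnl2 (0.26), Nol9 (0.28), Noc2l (0.25), Brix1 (0.22), Noc3l (0.17), Rrp1b (0.16) and Las1l (0.11); Las1l is the nuclease and Nol9 the kinase of the complex that cuts the spacer between the large subunit RNAs.

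Partners in the complex of Pes1, Bop1 and Wdr12, which matures the large subunit RNA, had unequal differences. Bop1 did not overlap (0.30 ± 0.081; DESeq2 adjusted p = 0.0313), nor did Wdr12 (0.30 ± 0.095). Pes1 was at 76.4, 67.3 and 63.7 CPM in the control libraries and 72.1, 68.0 and 74.6 in the resveratrol libraries (0.05 ± 0.090). Its highest library was control 1, and the groups overlapped. Nop16 was at 33.4, 27.7 and 32.1 CPM in the control libraries and 31.3, 32.6 and 36.6 in the resveratrol libraries (0.11 ± 0.11), also with overlap. Whether partners differ from one another in their response was not tested.

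The snoRNP proteins had a higher mean in 7 of 8 genes, 2 without overlap against 12.2% of all tested genes. Their median was 0.26, and 0.17 without resveratrol 3. Nop56 was at 36.9, 31.7 and 43.6 CPM in the control libraries and 43.0, 47.4 and 66.0 in the resveratrol libraries (0.48 ± 0.18). Resveratrol 3 stood well above the others, and control 3 overlapped with resveratrol 1; without resveratrol 3 the log2 fold change was 0.28. Nop58 did not overlap (0.39 ± 0.13), whereas Fbl, at 79.5, 55.0 and 75.9 CPM in the control libraries and 79.0, 81.7 and 93.2 in the resveratrol libraries, did (0.27 ± 0.15). For Fbl the lowest library was control 2, and control 1 equalled resveratrol 1 within 1 CPM. In the box H/ACA particle, Gar1 did not overlap (0.31 ± 0.14), Dkc1 differed by 0.18 ± 0.099 and Nhp2, at 34.5, 28.6 and 35.0 CPM in the control libraries and 32.1, 33.2 and 45.2 in the resveratrol libraries, by 0.17 ± 0.15, with resveratrol 3 far above the rest (0.0085 without it). Nop10, the smallest protein of this particle, had the lowest difference of all members: 47.2, 48.8 and 52.0 CPM in the control libraries and 44.6, 49.4 and 45.9 in the resveratrol libraries (-0.08 ± 0.080). Nolc1, a chaperone of snoRNPs, differed by 0.26 ± 0.12.

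The 3 nucleolar proteins with several roles split. Ddx21, a helicase that couples transcription to processing of ribosomal RNA, was at 78.7, 68.6 and 82.5 CPM in the control libraries and 111, 99.2 and 111 in the resveratrol libraries (0.48 ± 0.094; DESeq2 adjusted p = 0.00141). All resveratrol libraries lay above all control libraries. Npm1 was at 256, 242 and 272 CPM in the control libraries and 254, 266 and 319 in the resveratrol libraries (0.12 ± 0.10), with resveratrol 3 alone above the control range. Ncl was at 411, 353 and 397 CPM in the control libraries and 425, 387 and 431 in the resveratrol libraries (0.10 ± 0.088), and its groups overlapped.

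The libraries were also compared one by one. The median deviation of the 51 members from their own mean log2 CPM was -0.092, -0.21 and -0.077 in control 1, 2 and 3 and 0.063, 0.10 and 0.25 in resveratrol 1, 2 and 3. The groups thus did not overlap, control 2 was lowest and resveratrol 3 highest. In resveratrol 3, 50 of the 51 members were above their own mean, and in control 2, 3 of 51. Small and large subunit factors gave the same order of libraries at both ends, at -0.19 and -0.21 in control 2 and 0.22 and 0.22 in resveratrol 3. The snoRNP proteins overlapped, since control 3 was at -0.0021 and resveratrol 1 at -0.0070. Replicate 1 of each group carries Sep at the end of its sample description, the other libraries carry Oct, and the labels do not explain these endings. Between the Sep libraries, 1 per group and so without a test, 41 of 51 members were higher in resveratrol (49.9% of all genes; median 0.22); among the Oct libraries 50 of 51 were higher (47.9% of all genes; median 0.29). The 10 members that were not higher in the Sep pair included Fbl, Npm1, Nhp2, Pes1 and Nop16.

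**Figure D3:**
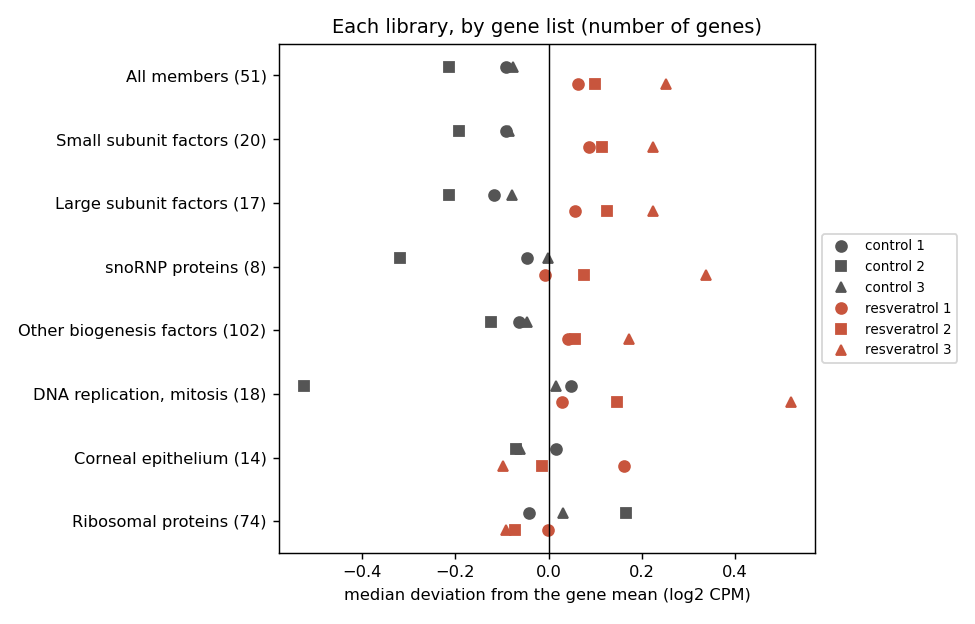
Median deviation of a gene list from its genes' mean log2 CPM in each library (x axis), for the members, 3 of their role groups and 4 comparison lists, with the number of genes in brackets; shape marks the replicate and colour the group. For all members the control libraries lie at or below -0.077 and the resveratrol libraries at or above 0.063, while the DNA replication and ribosomal protein lists have other orders.

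Biogenesis factors outside the 51 gave smaller values in the same direction. Of 102 such genes, 93 had a higher mean (48.8% of all tested genes did), and the median was 0.18. Without overlap 35 were higher and 1 was lower (12.2% and 14.4% of all tested genes). By edgeR 0 passed. DESeq2 called 3, all higher, while it called 2.23% of all genes higher and 4.64% lower. By subunit, 32 of 36 further small subunit factors and 39 of 42 further large subunit factors had a higher mean (medians 0.17 and 0.18). The 3 that DESeq2 called were Pak1ip1 (0.53 ± 0.14), Pno1 (0.49 ± 0.12) and Urb1 (0.45 ± 0.10), named after their values were seen. Pdcd11, a scaffold of early processing, differed by 0.21 ± 0.11, and Eif6, which keeps the subunits apart, by 0.06 ± 0.076. Both were among the highest of their lists by mean CPM, which is not scaled by transcript length. Tcof1, which supports ribosomal DNA transcription, differed by 0.29 ± 0.12, and Snu13, a shared protein of box C/D particles, by 0.27 ± 0.10. Nop53 (-0.25 ± 0.13) and the helicase Ddx47 (-0.12 ± 0.075) had lower means with overlap. Of 14 genes of the RNA exosome, the nuclease that trims precursors, 12 had a higher mean (median 0.20), with the helicase Mtrex at 0.11 ± 0.068 and the nuclease Exosc10 at 0.08 ± 0.085.

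Genes for the proteins of the ribosome itself mostly had lower means in resveratrol, except between the Sep libraries and, for 30 of them, once a length trend was removed. Of 74 cytosolic ribosomal protein genes, 3 (Rpl30, Rpl37 and Rpl38) had a higher mean, 16 were lower and 0 higher without overlap (14.4% of all tested genes were lower without overlap), the median was -0.10 (-0.011 with a length trend removed, described next, and -0.046 without control 2), and neither edgeR nor DESeq2 called any. Rplp0, of the stalk, was at 2059 ± 187 CPM (mean ± SD, n = 3) in control against 1831 ± 93.9 in resveratrol (-0.17 ± 0.11), and Rpsa at 1205 ± 67.6 CPM (mean ± SD, n = 3) in control against 1098 ± 41.8 in resveratrol (-0.13 ± 0.088). Between the Sep libraries 51 of the 74 were higher in resveratrol (median 0.043), and among the Oct libraries 1 of 74 (median -0.18), so this direction did not hold within both. Rps9, Rps19, Rpl35a and Rpl37a were also listed but had no match in the count table, so they are not among the 74. The difference between this list and the members was not tested.

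Transcript length moved with these values. Over all tested genes the median log2 fold change ran from -0.092 in the first of 10 equal bins (192 to 1167 bases) to 0.064 in the last (8114 to 72816 bases). Ribosomal protein transcripts were short (median 693 bases), and members were nearer to the rest (median 2641 bases, against 3102 for all tested genes). Mdn1, at 22036 bases the longest member, and Heatr1, at 6998, are both long, and Nop10, with the lowest difference, is short at 858. With the length trend of each library removed, the members' median was 0.27, with 49 of 51 higher, Mdn1 at 0.70 and Heatr1 at 0.61, while the ribosomal protein genes came to -0.011, with 30 of 74 higher. Split by length into 3 sets of 17, the members had medians of 0.28, 0.25 and 0.26 from shortest to longest.

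**Figure D4:**
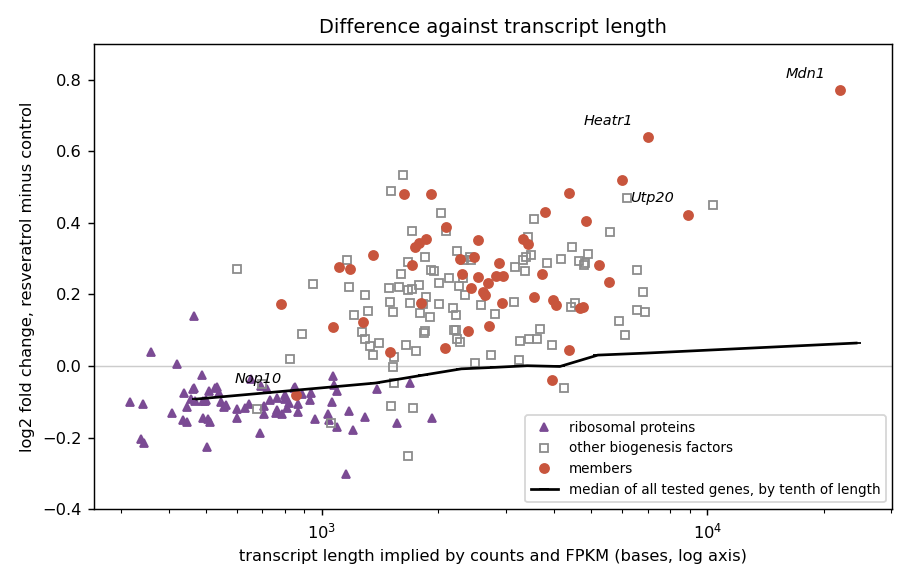
Log2 fold change, resveratrol minus control, against transcript length (log axis, bases) for the 51 members, 102 other biogenesis factors and 74 ribosomal protein genes; the black line joins the medians of all tested genes in 10 bins of length. Most members lie above the line over the whole range of lengths, and ribosomal protein genes lie near or below its left end.

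Growth regulators and cell markers were compared with the members. Myc itself was at 18.8, 59.1 and 71.9 CPM in the control libraries and 38.7, 48.2 and 39.9 in the resveratrol libraries (-0.24 ± 0.45). Control 1 was the lowest library and control 3 the highest. Of 11 genes of the Myc network 8 had a lower mean. Mxd4, which opposes Myc, lay lower without overlap (-0.30 ± 0.077; DESeq2 adjusted p = 0.0452), while Max (0.11) and Mga (0.23), both named after their values were seen, lay higher without overlap, and Mxd1 differed by -0.03 ± 0.098. Of 13 mTOR pathway genes 10 had a higher mean (median 0.12), with Mtor at 0.12 ± 0.11 and Eif4ebp2, a repressor of translation, at 0.19 ± 0.090, both with overlap. Larp1, which binds the messengers of ribosomal proteins, did not overlap, at 194 ± 15.4 CPM (mean ± SD, n = 3) in control against 260.5 ± 17.7 in resveratrol (0.42 ± 0.088; DESeq2 adjusted p = 0.00366). Rptor (0.23), Rictor (0.22) and Rps6kb1 (0.23) also lay higher without overlap and Rps6kb2 lower (-0.22). These 4 were named after their values were seen. Of 11 Myc network genes 2 thus lay higher and 1 lower without overlap, and of 13 mTOR genes 4 higher and 1 lower. Of all tested genes 12.2% lay higher and 14.4% lower without overlap. None of the mTOR or Myc genes passed by edgeR, and DESeq2 called only Mxd4 and Larp1 among them. Of all genes DESeq2 called 2.23% higher and 4.64% lower. The part of Myc and of mTOR in the members' differences was not tested.

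DNA replication and mitosis genes, which mark dividing cells, had a higher mean in 18 of 18 (median 0.33). Of these, 4 lay higher without overlap, against 12.2% of all tested genes. By the median deviation of the list the groups overlapped, with control 1 at 0.048 and resveratrol 1 at 0.028. Pcna, the sliding clamp of replication, differed by 0.45 ± 0.12 and Mki67, the antigen of cycling cells, by 0.52 ± 0.35. Their summed level was 621.6 to 934.1 CPM in control and 941.2 to 1268 in resveratrol, and 0 of them was at 0 in any library. Control 2 was their lowest library and resveratrol 3 their highest, as for the members. Between the Sep libraries they were lower in resveratrol at the median (-0.15), where the members were higher (0.22). Corneal epithelium markers, which check the tissue, were present in every library (14 of 14 tested, summed level 97615 to 108559 CPM in control and 97262 to 114537 in resveratrol); 11 of 14 had a higher mean (median 0.067), and the keratins Krt12 and Krt5 differed by 0.04 ± 0.26 and 0.03 ± 0.24. Markers of other cells had lower means: macrophage 12 of 14 (595.7 to 1118 CPM summed in control and 426.8 to 651.7 in resveratrol), vessel 10 of 10 (547.5 to 800.9 and 374.3 to 463.9), T cell 8 of 8 tested (31.2 to 63.6 and 17.9 to 28.5) and keratocyte and stroma 9 of 9 tested (11377 to 15745 and 8120.1 to 10689.5). Corneal endothelium markers were higher in 3 of 6 (832.5 to 1009.5 and 839.6 to 1412). The summed levels cover all 10 T cell markers and all 10 keratocyte and stroma markers of the count table, including those not tested. No marker was at 0 in all libraries. The part of dividing cells and of cell make-up in the members' differences was not tested.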

How the data were processed

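RNA of grafted corneas was sequenced as 150 bp paired-end reads, per the labels' protocols. The authors deposited raw gene counts and FPKM values (fragments scaled by transcript length and library size). The submitters' processing notes name mRatBN7.2, R 3.2.0 and DESeq2 without roles; aligner, counter, annotation and strand setting: not given in the sources used here. A separator is missing in the count table's header, so columns were assigned by name and checked: counts over FPKM gave the same relative gene lengths in every library (SD at most 3.54e-10 on the log2 scale, against at least 0.271 for mismatched columns). Transcript length was computed as that ratio, scaled by the library total.

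Members, role groups and lists were chosen with earlier results of these data known. Counts were filtered with filterByExpr (14213 genes left), scaled with TMM and tested with edgeR 4.0.16 (glmQLFit, glmQLFTest, Benjamini-Hochberg over all genes, threshold 0.05) in R 4.3.3. The same test was afterwards run on counts simulated from these data, and its outcome is not reported here. Standard errors come from limma 3.58.1 on log2 CPM (prior count 2). For 14666 genes DESeq2 1.42.0 returned an adjusted p. With 3 libraries per group an exact permutation test cannot go below 0.1, so none was made. Depth was 35068936 to 37460756 counts. Values for every library are given for 21 members: the 3 with the highest mean FPKM per role, and the 6 largest and 4 smallest differences. From other lists the 2 tested genes with the highest mean CPM are named, plus Myc and Mtor. Alternatives were other scaling, filters, thresholds, DESeq2, limma voom, FPKM with pseudocounts of 1 or 0.1, a replicate block, the Sep or Oct ending, the Oct libraries alone, removal of a length trend (lowess, span 0.3) and leaving out each library. Same-numbered libraries did not deviate together, so the numbers were not taken as pairs. Motif letters were searched after the promoter table had been seen.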

Additional observations from a re-analysis of the deposited data

How the results depend on the processing

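Over 19 alternatives the median log2 fold change of the members stayed between 0.21 (without resveratrol 3) and 0.32 (without resveratrol 1), and 48 to 50 of the 51 had a higher mean. Leaving out 1 library gave medians of 0.21 to 0.32 for all members, and 25 to 37 members higher without overlap, where 14.8% to 19.3% of all tested genes were. The Oct libraries alone, with fewer libraries to overlap, gave 42 without overlap (25.2% of all tested genes), and upper quartile scaling gave 20 (9.76%). DESeq2 called 1007 genes, 7 of them members, where edgeR called 0 in both; without a library edgeR called 0 to 21 genes (21 without control 3, 1 without resveratrol 2) and 0 members in each case. At an adjusted p of 0.1 or 0.01 edgeR called 0 genes and 0 members. The ribosomal protein median of -0.10 became -0.011 with the length trend removed and -0.046 without control 2, where 9 of 74 were higher; without any 1 library it ran from -0.15 to -0.046. The snoRNP median of 0.26 was 0.17 without resveratrol 3. Deviations of same-numbered libraries were nearly uncorrelated (-0.0044, -0.012 and -0.023), though replicate 1 carries the Sep ending in each group. With the replicate block the members' median was 0.25, and 0 genes were called. Among single members, 966 of 969 values moved by less than the spread between replicates; the other 3 were Mdn1 on log2(FPKM + 1) (0.46 against 0.77), Utp14a in the Oct libraries alone (0.39 against 0.25) and Nop10 with the length trend removed (-0.0036 against -0.08). The sign changed in 4, 3 of Utp4 and 1 of Pes1. Overlap of groups has no value under limma voom, the block or the covariate. Standard errors of the members ran from 0.078 (Utp15) to 0.19 (Polr1b) on the log2 scale. The smallest difference with an unadjusted edgeR p under 0.05 was that of Rrn3, at 0.19 ± 0.082. Smaller ones, such as Rrp1b at 0.16 ± 0.18 and Nhp2 at 0.17 ± 0.15, were not resolved here. Neither were some larger ones, such as Fbl at 0.27 ± 0.15 and Polr1b at 0.43 ± 0.19. By edgeR no member passed, whatever the size of its difference.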
